A study of Mus musculus with 16 samples.

Results

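Of the 44760 accessible regions listed for mouse germ cells at postnatal day 3 (P3), 3388 lay where no earlier list had a region. These P3-only regions were chosen by their absence from the 5 other distinct peak lists of the series: those of Morc1 heterozygous and knockout fetuses of E13.5, those of E16.5, and the P0 list. They made up 7.57% of the P3 list. Sharing a single base with a region of any earlier list was enough to be left out. That choice used the measured lists, so the number itself is a description and was not tested.

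The assay was ATAC-seq, in which a transposase cuts and tags DNA that is not wrapped tightly in chromatin. The series holds 16 samples of male germ cells isolated from testes of Mvh-Venus transgenic mice, 2 for each of 4 stages and 2 genotypes, Morc1 (+/-) and Morc1 (-/-). The Mvh-Venus transgene, a germ-cell reporter, was thus common to all groups, and there was no group with both Morc1 alleles intact. The germ cells are called gonocytes in the labels. Morc1 encodes a nuclear ATPase with a part in transposon silencing in the male germ line. Each of the 8 groups has 1 list of regions and no value per sample, height or score. At P3 the lists deposited for the 2 genotypes were identical, as were those at P0, so P3-only regions carry no genotype.

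Gonocytes pause their cell cycle in the fetal testis and resume division within days of birth. They then move from the centre of the cord to its edge. There they become either spermatogonial stem cells, which depend on GDNF signalling through the receptors GFRA1 and RET, or spermatogonia that enter differentiation under retinoic acid. Retinoic acid binds nuclear receptors of the RAR and RXR families, and Stra8 is its best known target in germ cells. In bulk chromatin a region held open in few cells and one weakly open in all cells cannot be told apart, and either may miss a list.

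Among the genes of the pathway and marker lists, the one whose RefSeq promoter window was met by a P3-only region was Stra8, whose product prepares germ cells for meiosis. Some listed genes had no window and could not be met. Among them were Lum, Ret, Pou3f1, Cdh1, Vwf and Esam, each with a P3-only region within bounds or 10 kb of them. The Stra8 promoter window runs from 250 bases before to 50 after the annotated start. It is shown with 4 other windows that P3-only regions covered over all 300 bases. Those 4 were picked after their values were seen, to show the range of base composition. They belong to Aldh1a7, a member of the aldehyde dehydrogenase family, and Ecm1, an extracellular matrix protein. The others are those of Tlr1, a receptor for bacterial lipopeptides, and Tcf12, a basic helix-loop-helix transcription factor. Sequences are RefSeq's, build GRCm38.p6, written 5′ to 3′ on the strand of the gene. Capitals mark each match, on either strand, to AGGTCA (a nuclear receptor half-site), TGANTCA (AP-1 type), CCAAT or GGAAGT (ETS type).
Stra8, chr6:34920698-34920997, plus strand: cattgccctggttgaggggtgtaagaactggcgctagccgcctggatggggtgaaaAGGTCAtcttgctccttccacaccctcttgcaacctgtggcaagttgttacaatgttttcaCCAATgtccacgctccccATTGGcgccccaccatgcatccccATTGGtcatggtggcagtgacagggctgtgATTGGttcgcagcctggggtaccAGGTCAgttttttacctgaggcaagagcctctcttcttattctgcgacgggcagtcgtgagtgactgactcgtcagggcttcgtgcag
Aldh1a7, chr19:20727507-20727806, minus strand: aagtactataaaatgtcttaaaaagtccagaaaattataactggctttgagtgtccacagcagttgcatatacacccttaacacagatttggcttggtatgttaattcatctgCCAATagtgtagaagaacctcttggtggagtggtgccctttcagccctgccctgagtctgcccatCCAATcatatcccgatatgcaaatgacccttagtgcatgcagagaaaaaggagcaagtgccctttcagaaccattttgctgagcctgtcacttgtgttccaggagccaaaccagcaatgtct
Ecm1, chr3:95739520-95739819, minus strand: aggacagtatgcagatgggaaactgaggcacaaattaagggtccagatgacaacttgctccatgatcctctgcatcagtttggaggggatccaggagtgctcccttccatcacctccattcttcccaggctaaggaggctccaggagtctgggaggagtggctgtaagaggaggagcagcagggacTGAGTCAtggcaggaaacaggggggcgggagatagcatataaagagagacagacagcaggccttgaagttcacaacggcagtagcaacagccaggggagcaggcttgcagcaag
Tlr1, chr5:64933509-64933808, minus strand: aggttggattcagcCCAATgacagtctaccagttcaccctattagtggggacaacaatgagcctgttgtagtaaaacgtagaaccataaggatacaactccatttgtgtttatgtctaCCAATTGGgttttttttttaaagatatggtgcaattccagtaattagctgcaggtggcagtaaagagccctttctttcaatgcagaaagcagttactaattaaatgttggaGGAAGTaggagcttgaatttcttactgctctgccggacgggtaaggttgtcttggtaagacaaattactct
Tcf12, chr9:72111152-72111451, minus strand: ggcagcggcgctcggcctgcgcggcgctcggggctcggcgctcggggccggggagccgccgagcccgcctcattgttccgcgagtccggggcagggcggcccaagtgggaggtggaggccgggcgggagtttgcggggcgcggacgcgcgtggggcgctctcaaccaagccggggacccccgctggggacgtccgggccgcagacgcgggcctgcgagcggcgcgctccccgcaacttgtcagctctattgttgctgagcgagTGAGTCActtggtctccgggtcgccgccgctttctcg

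The Stra8 window held 2 matches to AGGTCA, which began at positions -194 and -38 from the start, and 4 matches to CCAAT between them. It had 10 CpG dinucleotides and 55.7% GC. The Aldh1a7 window had 1 CpG and 44.0% GC, the Ecm1 window 2 CpGs and 54.7% GC, and the Tlr1 window 3 CpGs and 40.3% GC. At Tcf12 the window had 45 CpGs and 75.7% GC, the base composition of a CpG island. A match is a run of letters and not evidence that a factor was bound.

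The region at the Stra8 start lay at positions 34920630 to 34921130 of chromosome 6, with its centre 68 bp before the start. No other list had a region there. The nearest earlier ones were a P0 region 687 bp away and a region of the E13.5 knockout list 694 bp away, which lay 1.12 and 1.13 kb into the gene. In the E13.5 heterozygous list and both E16.5 lists the region inside Stra8 lay further in, at 6.37 to 6.44 kb from the start, and P3 had one there too, at 6.33 kb. A further region 10.1 kb before the start was present in all 6 lists. The surroundings of Stra8 were thus listed as open from E13.5, and the start itself at P3.

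At Gfra1, the receptor subunit that binds GDNF, the P3 list had 3 regions within the gene and all 3 were P3-only. They lay at 58406668 to 58407168, 58418162 to 58418662 and 58430139 to 58430639 of chromosome 19, which is 48.5, 37.0 and 25.0 kb into the gene. The nearest earlier regions were 41171, 29677 and 17700 bp away. Earlier lists opened other parts of Gfra1. A region 6.79 to 6.81 kb into the gene was listed in E13.5 heterozygous cells, E16.5 knockout cells and P0, and a region 96.9 to 97.0 kb in was listed in E16.5 knockout cells and P0. Neither was listed at P3. The E13.5 knockout and E16.5 heterozygous lists had no region in Gfra1. A region within 1000 bp of the outer end of Gfra1 on the side of its start was listed in E13.5 heterozygous cells alone (centre at -0.423 kb), and the P0 list had one 0.856 kb past the start. Of 21887 protein-coding genes, 50 held 3 or more P3-only regions within their bounds.

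**Figure D1:**
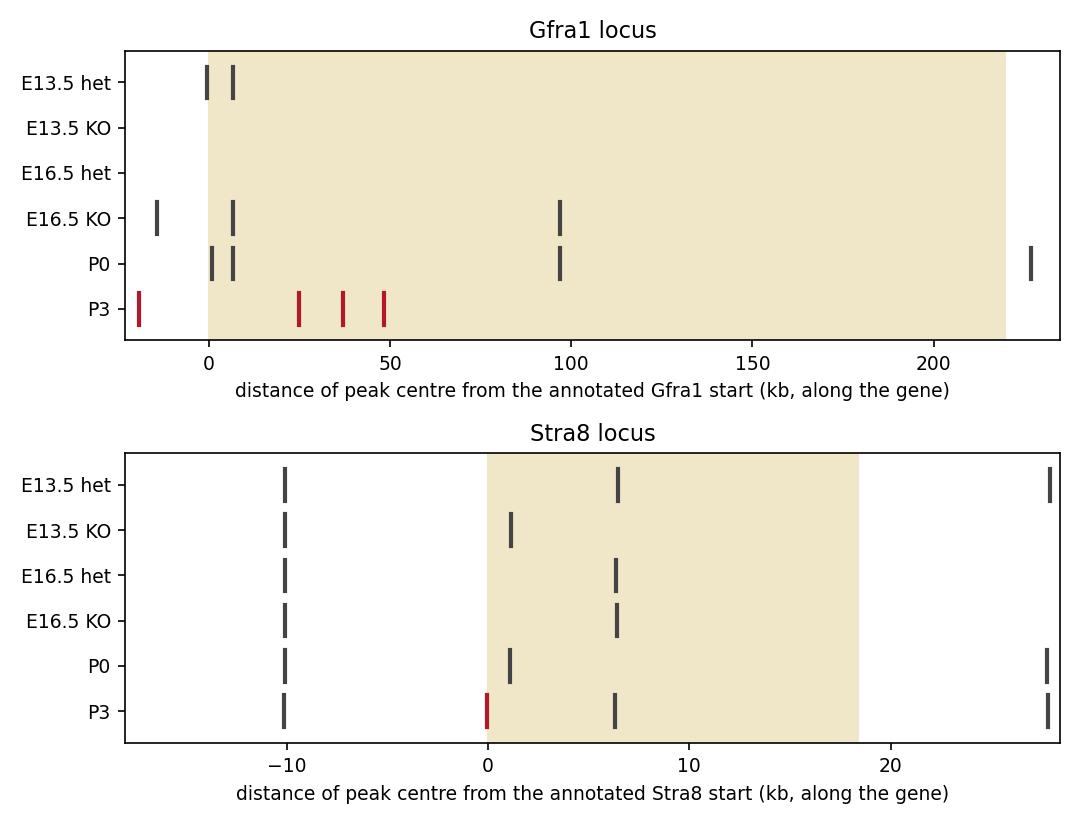
Regions of the 6 distinct lists at Gfra1 (top) and Stra8 (bottom), 1 row per list, as distance of the centre of the region from the annotated start in kb along the gene. Red ticks are P3-only regions, dark ticks all others, and shading runs from the start to the far end of the gene. The 3 red ticks inside Gfra1 stand 25.0 to 48.5 kb from the start, where no other row has a tick.

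Ret and Etv5 of the GDNF pathway also had a P3-only region. Ret, the signalling partner of GFRA1, had one at 118189908 to 118190408 of chromosome 6, 6522 bp from the nearest earlier region. The region at the upper end of Ret was in all 6 lists. Etv5, a transcription factor induced by GDNF, had one at 22431928 to 22432428 of chromosome 16, 6.19 kb from the nearer of its 2 annotated starts, which is the inner one. The outer start of Etv5 was open in all 6 lists. A region 9.14 to 9.34 kb from the inner start was listed in the 5 earlier lists and not at P3. The P3 list thus had 2 regions within Etv5, the one at the outer start, shared with every earlier list, and the P3-only one. Of the 25 spermatogonial stem cell genes, these 3 (12%) held a P3-only region within their bounds, and Pou3f1 and Tspan8 had one within 10 kb. Over all protein-coding genes the shares were 5.60% within bounds and 7.49% with 10 kb added.

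Long genes are more likely to hold a region. A P3-only region was found within 0.505% of protein-coding genes under 10 kb, 2.86% of those from 10 to 50 kb, 13.3% of those from 50 to 200 kb and 40.6% of longer ones. Gfra1 spans 220.4 kb, Ret 46.0 kb and Etv5 58.3 kb. Of the stem cell genes, 8 of 25 are 50 kb or longer and 2 are 200 kb or longer, against 22.6% and 4.52% of protein-coding genes, although the median length of the list is 7.95 kb against 17.2 kb. The part of gene length in the share of this list was not tested.

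The retinoid pathway list had 3 of 20 genes (15%) with a P3-only region within bounds, and none at a gene end. In Rara, the retinoic acid receptor alpha gene, it lay 11.9 kb from the nearest start, at 98951332 to 98951832 of chromosome 11. Rarb, the beta receptor gene and itself a retinoic acid target in many tissues, had 10 P3 regions, of which 1, at 16500583 to 16501083 of chromosome 14, was P3-only. Aldh1a1, which makes retinoic acid from retinaldehyde, had one at 20631671 to 20632171 of chromosome 19, 30.0 kb from the inner of its 2 annotated starts. An annotated start of Rara and that of Rarb were open in all 6 lists. The inner start of Aldh1a1 was open at E13.5, P0 and P3 and in neither E16.5 list, and no list had a region at an outer end of the gene. Neighbouring Aldh1a7, which is not in this list and was picked after its values were seen, had a P3-only region over its start. That region lay 44957 bp from any earlier region. No P3-only region lay within the other 17 genes of this list, which include Rarg, the RXR genes, the retinoic acid degrading Cyp26 genes and Stra6. Rarb is 651 kb long, in the class of which 40.6% held a P3-only region. Aldh1a1, at 151 kb, is in the class with 13.3%, and Rara, at 47.1 kb, in that with 2.86%.

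Most germ-cell genes had none, as did most protein-coding genes, of which 5.60% held one within bounds. The shares of the lists in this paragraph were near or below that value. Stra8 was the single gene of 20 (5%) in the spermatogonial differentiation list; Kit, Sohlh1, Sohlh2, Dmrtb1, Neurog3 and Dnmt3b held none. In the meiosis list Stra8 was again the single gene, of 22. In the list of piRNA pathway and silencing genes 1 of 22 held one within bounds: Tdrd1, a tudor-domain protein of the piRNA pathway. It lay at 56852330 to 56852830 of chromosome 19, 21.9 kb from the nearest of 3 annotated starts, and no earlier list had any region within Tdrd1. Ddx4 and Dnmt3l had one within 10 kb, and Morc1 none. The cell cycle list had 1 of 24 genes, Cdk6, a kinase that drives entry into S phase, and the adhesion and migration list 1 of 20, Cdh1, which encodes E-cadherin. The pluripotency and fetal germ cell list had 0 of 20. The median length of its genes is 5.99 kb, and 0.505% of protein-coding genes under 10 kb held a P3-only region. Of its 20 genes, 2 are 50 kb or longer, Prdm1 (91.4 kb) and Kit (81.7 kb). The part of gene length in this count was not tested.

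Marker genes of somatic cells were examined beside these. A P3-only region lay within 1 of 20 Sertoli cell markers (Kitl, the KIT ligand gene), 1 of 12 Leydig cell markers (Hsd17b3, an enzyme of testosterone synthesis, with 2), 2 of 14 peritubular and stromal markers (Lum and Ptch1), 2 of 10 endothelial markers (Vwf and Esam) and 0 of 15 blood and macrophage markers. The shares of the peritubular (14.3%) and endothelial (20.0%) lists were thus as high as those of the stem cell and retinoid lists, on 14 and 10 genes. At a gene end there were 2 listed genes in all, Stra8 and Lum, an extracellular matrix proteoglycan of stroma, against 143 of 21887 protein-coding genes (0.653%). Over all 227 listed genes, counted once each, 16 (7.05%) held a P3-only region within bounds, close to the 5.60% of protein-coding genes. As a check of the label, a P3 region of any kind stood at a gene end of 58.3% of protein-coding genes. Among the germ-cell lists it did so at 20 of 22 meiosis, 16 of 22 piRNA and silencing, 13 of 20 differentiation, 13 of 25 stem cell and 9 of 20 pluripotency and fetal germ cell genes. Among somatic markers it did so at 9 of 20 Sertoli cell, 5 of 12 Leydig cell, 6 of 14 peritubular, 4 of 10 endothelial and 2 of 15 blood and macrophage genes. The stem cell share was slightly below that of all protein-coding genes, and near it for a list of 25. The pluripotency share was lower, as were those of the somatic lists. None of these differences was tested. Open chromatin at a gene does not show that it is transcribed, and the part of other cell types in the P3-only set was not tested.

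**Figure D2:**
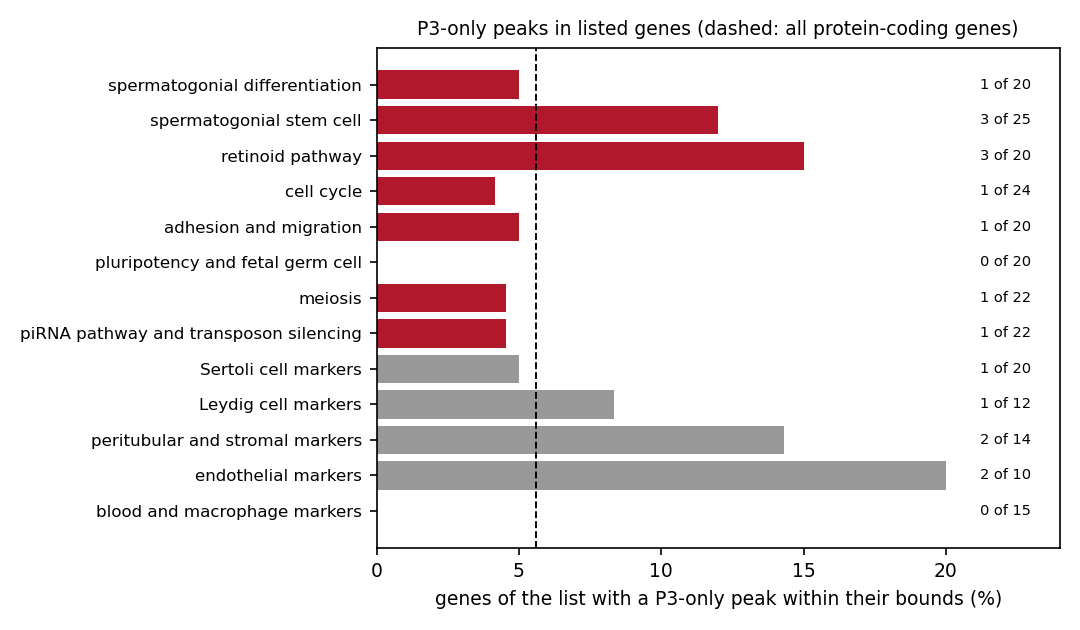
Share of the genes of each list (%) with a P3-only region within their bounds, with counts at the right. Red bars are germ-cell and pathway lists, grey bars somatic marker lists, and the dashed line is the 5.60% of all protein-coding genes. Stem cell (3 of 25) and retinoid (3 of 20) lists lie right of the line, as do Leydig, peritubular and endothelial markers.

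Across the genome, P3-only regions were mostly away from gene ends. Within 1000 bp of an outer end of an annotated gene lay 346 of 3388 (10.2%, 95% Wilson interval 9.24 to 11.3), compared with 35.8% (35.3 to 36.2) of the 41372 P3 regions found in an earlier list. The share was lower than that of the latter on 19 of 19 autosomes, with a range over autosomes of 7.11% to 13.8% against 27.1% to 49.6%. Intervals cover counting error over regions only, since no replicate lists were used. Counting protein-coding genes alone lowered the share to 3.98%. Low shares at gene ends were common to regions of a single stage. They were 9.40% for regions of the E13.5 heterozygous list found at no other stage (E13.5-only), 9.83% for E16.5-only regions, likewise from the heterozygous list, and 12.3% (11.7 to 12.8) for P0-only regions.

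Where the single-stage sets differed was inside and between genes. Elsewhere within gene bounds lay 46.1% (44.4 to 47.8) of P3-only regions, and 43.7% (42.1 to 45.4) lay between genes. P0-only regions, from 3 days earlier, lay within genes in 24.5% and between genes in 63.3% (62.5 to 64.1) of cases. E16.5-only regions stood at 37.7% and 52.5%, and E13.5-only regions at 52.5% and 38.2%. P3 regions found earlier stood at 25.2% and 39.1%, so their share between genes was nearer to that of P3-only than the P0-only share was. The share between genes was lower for P3-only than for P0-only regions on 19 of 19 autosomes, and higher than for E13.5-only regions on 18 of 19. Among the single-stage sets, P3-only therefore lay between E13.5-only and E16.5-only in this measure, and farthest from P0-only. The lists behind these sets rank alike by size. They hold 40448 (E13.5 heterozygous), 44760 (P3), 53687 (E16.5 heterozygous) and 67258 (P0) regions. Stage and list size cannot be told apart here, and the part of list size was not tested.

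**Figure D3:**
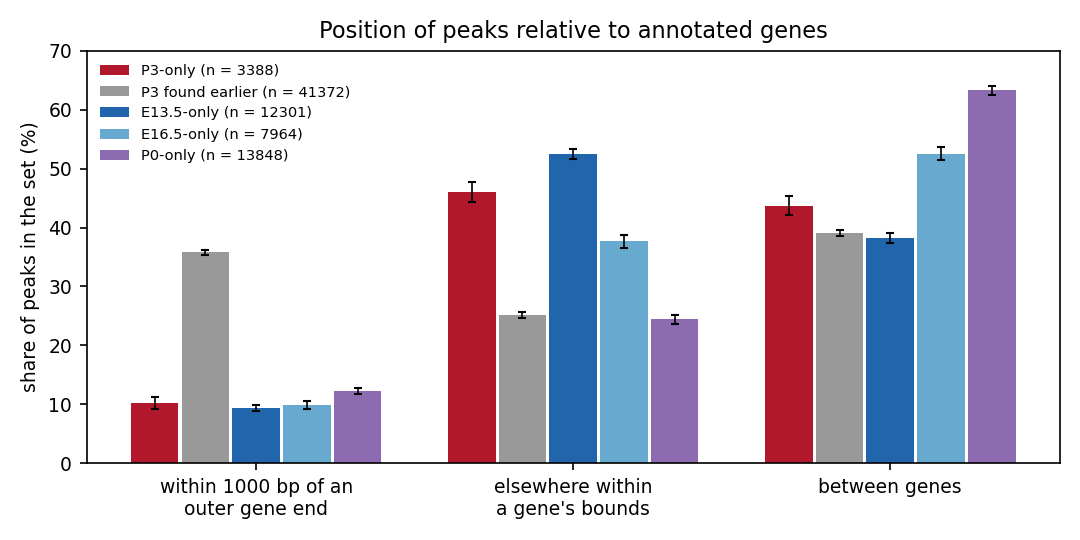
Share of regions (%) near gene ends, elsewhere within genes, and between genes, for the P3-only set, the P3 regions found earlier and the sets of single earlier stages. Bars are shares with 95% Wilson intervals over regions. P3-only regions (red) lie within genes in 46.1% and between genes in 43.7%, against 24.5% and 63.3% for P0-only regions (purple).

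Gene density followed the same order. Genes were counted in fixed windows of 1 Mb, by the lower coordinate of their bounds. The window holding the centre of a P3-only region had a median of 6 protein-coding genes. The median was 3 for P0-only, 5 for E16.5-only and 7 for E13.5-only regions, and 7 for P3 regions found earlier. Windows with at most 1 such gene held 18.7% (17.4 to 20.0) of P3-only regions and 36.0% (35.2 to 36.8) of P0-only regions. For P3 regions found earlier the share was 19.7% (19.3 to 20.1), so P3-only regions resembled the rest of their own list here. The median distance from a P3-only region to the nearest annotated start was 36.0 kb, with quartiles of 13.3 and 101 kb. It was 63.6 kb for P0-only regions, 30.1 kb for E13.5-only regions and 19.9 kb for P3 regions found earlier. The largest class, 39.5% of P3-only regions, lay 10 to 50 kb from a start, and 4.01% lay within 1 kb. Distances use the RefSeq promoter table, without chromosome 18.

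The X chromosome had few P3-only regions. They were 53 of 1188 P3 regions on the X (4.46%, 3.43 to 5.79) and 3335 of 43563 on the autosomes (7.66%, 7.41 to 7.91). Single autosomes ranged from 6.09% (chromosome 7) to 9.07% (chromosome 18), and the intervals of X and of chromosomes 7 and 4 overlapped. P0-only regions went the other way, with 32.6% (31.0 to 34.3) of the P0 list on the X and 20.0% on the autosomes. E13.5-only and E16.5-only regions were slightly less frequent on the X than on autosomes, at 27.7% against 30.5% and 12.6% against 14.9%. When an overlap of 50% of both regions was required for a match, the X share rose to 7.07% and the autosomal share to 9.82%. On the Y chromosome 0 of 9 P3 regions were P3-only.

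**Figure D4:**
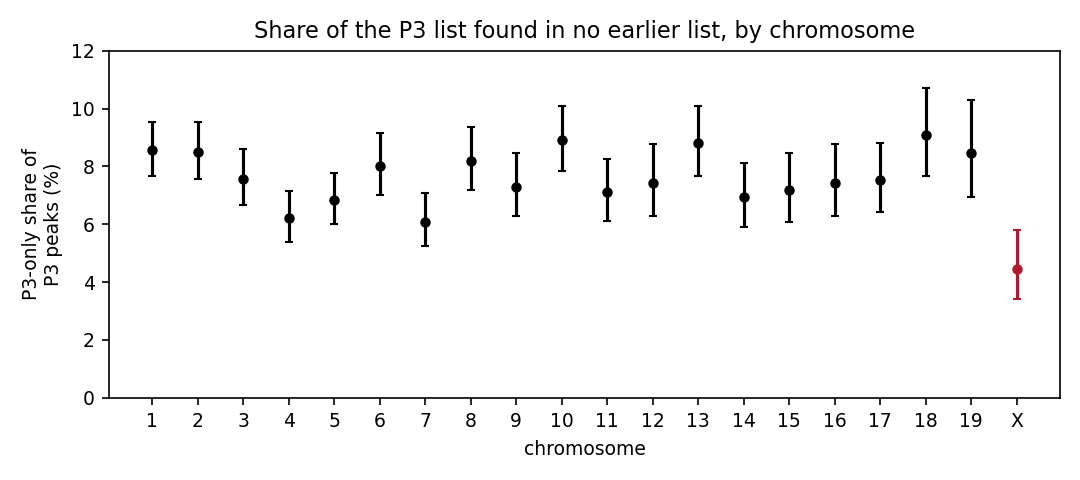
P3-only regions as a share of all P3 regions (%), by chromosome, with 95% Wilson intervals over regions. The X chromosome (red) stands at 4.46%, below every autosome; the lowest autosomes are 7 (6.09%) and 4 (6.22%).

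P3-only regions were scattered. Another P3-only region lay within 10 kb for 115 of them (3.39%), and the median gap to the next was 221774 bp. A P3 region of any kind lay within 10 kb of 26.5% of P3-only regions and of 25.6% of P3 regions found earlier. Single windows of 1 Mb held at most 8, a number reached in 5 windows. The one with the largest share of its P3 regions, 8 of 20 (40.0%), was 58000001 to 59000000 of chromosome 19, which holds the 3 Gfra1 regions, 1 each within Atrnl1 and Hspa12a and 3 outside protein-coding genes. On chromosome 2 the windows from 166000001 (with Sulf2, Prex1 and Ncoa3) and from 170000001 (with Tshz2, Zfp217 and Dok5) held 8 of 22 and 8 of 47. The window from 145000001 of chromosome 6, with Bcat1, Sspn and Bhlhe41, held 8 of 31. That from 143000001 of chromosome 1, with Cdc73 and Rgs2, held 8 of 28.

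The genes with the most P3-only regions within their bounds were long. Sox5, a transcription factor of the SOX family, and Arhgap24, a GTPase activating protein, had 6 each, in 954 and 698 kb. Ldlrad4, Slc9a9, Rbfox1, Macrod2, Ctnna3 and Gpc5 had 5 each. In all 20 genes had 4 or more, and Slit3 and Erg are named from those with 4 because the largest shares of their P3 regions were P3-only. Slit3, a secreted guidance ligand of ROBO receptors, had 4 among its 5 P3 regions, while it held 13 and 10 regions in the E13.5 lists and 2 in each of the E16.5 and P0 lists. Erg, an ETS transcription factor best known in endothelium and blood, had 4 among 6 P3 regions in 227 kb. Per 100 kb, Erg held 1.76 and Ldlrad4 1.52, against 0.143 over the 990 protein-coding genes of 200 kb or more. Sox5 held 18 regions in the heterozygous and 21 in the knockout E13.5 list, 9 and 13 in the E16.5 lists, 9 in the P0 list and 16 in the P3 list. Ldlrad4 held 7 and 9, then 1 and 1, then 3 and 10. At these 2 genes the E16.5 and P0 counts were below both the E13.5 and the P3 counts, as they were at Slit3. Macrod2 held 19 and 17, then 6 and 4, then 16 and 17, so its P0 count was only just below that of P3. The P3-only positions were, by the rule, not those of E13.5. Arhgap24, Slc9a9, Rbfox1, Ctnna3 and Gpc5 went the other way, with more regions in each E16.5 list than in either E13.5 list. In the same order of lists, Arhgap24 held 9 and 6, then 21 and 21, then 14 and 17. Gpc5 held 16 and 22, then 32 and 36, then 39 and 26. Erg followed neither course. These genes were picked by their count, so it is a description. The lists differ in size, and the part of list size in these counts was not tested.

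Annotated starts were rarely met. P3-only regions overlapped 73 of 32851 promoter windows (0.222%), belonging to 70 genes, of which 30 are protein-coding and 40 are long non-coding RNA genes. In all, 379 of 49943 annotated genes (0.759%) had one at an outer end. Seen as a share of the regions, 69 of the 3263 outside chromosome 18 (2.11%, 1.67 to 2.67) met a promoter window, against 24.8% of P3 regions found earlier and 2.12% to 2.64% of the other single-stage sets. An earlier list had its own region in 2 of the 73 windows, those of Klf8 and 1300017J02Rik.

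The 30 protein-coding genes are named here after their values were seen, and no theme was tested on them. In 16 of them a window was covered over all 300 bases. Besides Stra8, Aldh1a7, Ecm1, Tlr1 and Tcf12 these were Ackr3, a scavenging receptor for the chemokine CXCL12, Nnat, an imprinted gene expressed from the paternal allele, Was, the Wiskott-Aldrich actin regulator, Pls3, an actin bundler, Sema3g, a semaphorin, Rhoj, a small GTPase, Slc39a8, a metal ion transporter, Hs6st2, a heparan sulfate sulfotransferase, Mpst, a sulfurtransferase, Lce1h and Caly. In the other 14 the window was covered in part: Cryga, Otos, Fcgr2b, Tor4a, Gapvd1, Slc10a6, Tacr1, Plaur, Cd209g, 1300017J02Rik, Atp2c1, Fyb, Frmpd3 and Klf8. At Ackr3 the region lay at 90203689 to 90204189 of chromosome 1, its centre 41 bp before the start. At Nnat it lay at 157559791 to 157560291 of chromosome 2, its centre 37 bp before the start. At Was it lay at 8090376 to 8090876 of the X chromosome, over all 300 bases. An earlier region stood within 500 bp of the P3-only one at 14 of the 30 genes, among them Rhoj (2 bp), Fyb (66 bp), Cd209g (76 bp), Tcf12 (84 bp), Tlr1 (130 bp) and Ecm1 (318 bp). At those starts the lists differed by a short distance. At Was, Pls3, Aldh1a7 and Fcgr2b the nearest was 4052 bp or more away.

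The 73 promoter windows were met by 69 P3-only regions, which covered 29 of them over all 300 bases. Some of the windows overlap and were met by the same region. Base composition and motifs were counted over whole windows, including parts that no P3-only region covered. Promoter windows met by P3-only regions were poorer in CpG than those met by P3 regions found earlier. The median ratio of observed to expected CpG in P3-only windows was 0.264 (95% interval of the median 0.235 to 0.347). It was 0.777 for windows met by P3 regions found earlier and 0.384 for all windows. Under the 50% overlap rule the P3-only median was 0.373 (0.347 to 0.430), and that interval held the 0.384 of all windows. Of P3-only windows, 6 of 73 (8.22%, 3.82 to 16.8) had at least 50% GC and a ratio of at least 0.6. The share was 71.9% for windows met by P3 regions found earlier and 33.5% for all windows. It was 18.3% (14.6 to 22.7) for E13.5-only, 23.9% (18.3 to 30.6) for E16.5-only and 14.9% (11.5 to 19.1) for P0-only windows. The P3-only interval overlapped those of E13.5-only and P0-only. Windows of the other single-stage sets had medians of 0.290 (E13.5-only), 0.310 (E16.5-only) and 0.404 (P0-only, 0.380 to 0.436).

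Of 11 motifs counted in these windows, on both strands, the AP-1 type TGANTCA had the highest ratio to its share in all windows. It was found in 14 of 73 windows (19.2%, 11.8 to 29.7), as in those of Ecm1, Tcf12, Plaur and Cd209g. The share was 7.81% of all windows, 4.06% of windows met by P3 regions found earlier, 7.89% (E13.5-only), 9.78% (E16.5-only) and 8.48% (P0-only, 5.97 to 11.9). The intervals of the P3-only and the E16.5-only and P0-only windows overlapped, and under the 50% overlap rule the share was 12.2% of 147 windows. CCAAT was found in 23.3% (15.1 to 34.2) and 37.4% of all windows. The half-site AGGTCA was in 19.2% against 16.3%, GGAAGT in 32.9% against 23.8%, GGGCGG in 21.9% against 35.7%, and the E-box CANNTG in 69.9% against 72.3%. CACGTG was found in 8.22% (3.82 to 16.8) against 7.15%. AAGGTCA was likewise found in 8.22% against 4.72%. TGTTTAC was found in 4.11% (1.41 to 11.4) against 3.65%. ATGCAAAT was likewise found in 4.11% against 1.74%, and AGATAA in 8 of 73 against 11.2%. Each of these 5 intervals held the share of all windows. AAGGTCA contains AGGTCA, and CACGTG is one form of CANNTG.

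**Figure D5:**
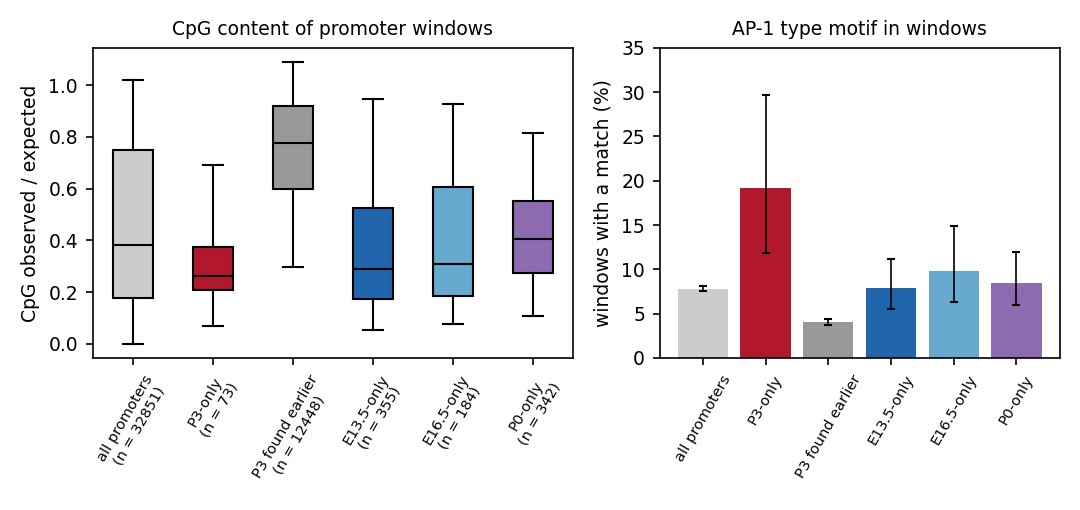
Left, ratio of observed to expected CpG in promoter windows met by each set (box: quartiles; line: median; whiskers: 5th to 95th percentile). Right, share of windows (%) with a match to TGANTCA, with 95% Wilson intervals. P3-only windows have a median ratio of 0.264 and a motif share of 19.2%, against 0.384 and 7.81% of all windows. Under the 50% overlap rule, not drawn, the median ratio is 0.373.

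The boundary of the set is soft. Among the P3-only regions, 80 lay 50 bp or less from an earlier region and 505 (14.9%) lay within 500 bp, while 78 regions outside the set overlapped an earlier one by 50 bp or less. The median gap to the nearest earlier region was 7071 bp, with quartiles of 1958 and 15886 bp. Of the 23 P3-only regions within listed genes or 10 kb of them, 22 were further than 500 bp from any earlier region, the exception being 1 of the 2 at Hsd17b3.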

How the data were processed

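ATAC-seq of 16 samples in 8 groups was used as 8 peak lists that the authors deposited, 1 per stage and genotype, with chromosome, start and end and no score. Nearly all peaks are 501 bp wide. Per the submitters' processing notes the build was mm10, and bcl2fastq 2.20, cutadapt 1.18, Bowtie2 2.3.4.1, deepTools 3.5.0 and HOMER 4.10 were used. Threshold, pooling of replicates and depth are not given in the sources used here, and depth moves how many peaks a list has.

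A peak of the P3 list with no overlap of 1 bp or more in the 5 earlier lists was P3-only (count checked with bedtools 2.31.1 and on simulated data). Positions are 1-based. Genes, with outer bounds only, and promoter windows (32851 windows of 27025 genes; 250 bases before and 50 after the start) are RefSeq's, GRCm38.p6. Exons and introns were not told apart. Of the names fixed for the gene lists, 1 (Dnmt3c) had no entry. Shares have 95% Wilson intervals and medians exact order-statistic intervals. No test across samples was possible with 1 list per group. Expected CpG is the product of C and G counts over length.

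Named genes were those of the lists with a P3-only region at a gene end, the 10 with most in bounds (ties by the share of P3 regions that were P3-only) and the 5 densest windows of 1 Mb; other genes were named after their values were seen. Members and lists were chosen with earlier results of these data known. Alternatives were a 50% reciprocal overlap, a distance of 500 bp, lists of 1 genotype, autosomes, other gene-end windows and protein-coding genes.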

Additional observations from a re-analysis of the deposited data

How the results depend on the processing

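No paired analysis was possible because the 2 samples of a group share 1 list, and for the same reason no replicate could be left out. Stricter peak thresholds were not run, since the lists hold no score. Of 43 recomputed values 31 stayed within the interval, or within 1.5 times the count, of the reported one and 12 did not. A reciprocal overlap of 50%, which enlarges the set to 4362 regions, gave 11.9% at gene ends, 46.4% between genes, 3.07% at promoters, 7.07% of X regions and a median CpG ratio of 0.373. The interval of that ratio, 0.347 to 0.430, held the 0.384 of all promoter windows. Counting regions within 500 bp as shared, which leaves 2883, gave 8.26% at gene ends and 3.28% of X regions, with 6.53% on autosomes. A narrower gene-end window (500 bp) gave 6.94% and a window of double width 14.7%. Protein-coding genes alone gave 3.98% at gene ends, 55.8% between genes and 143 genes with a P3-only region at an end, by the construction of fewer genes. Using heterozygous or knockout lists alone raised the set to 4059 or 4066 regions and the autosomal share to 9.16% or 9.20%, outside its interval, while the shares by place, at promoters and on the X stayed within theirs. Under both overlap rules the share between genes kept its order, E13.5-only below P3-only below E16.5-only below P0-only. The order also held with E13.5-only and E16.5-only regions taken from the knockout lists (36.8% and 52.1%), a choice made after seeing the data.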
